A study of Mus musculus with 20 samples.

Results

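The ubiquitin-specific proteases, encoded by the Usp genes, were examined across 5 doses of H2O2 in C2C12 myotubes. A probe set was a member if its only gene symbol in the platform annotation was Usp followed by a number, with trailing letters allowed. That gave 68 probe sets of 39 genes among 22690 on the array. A member was kept if 4 or more of the 20 arrays gave it a signal at or above their own 40th percentile. This left 55 probe sets of 31 genes, of 14379 probe sets and 8159 genes tested in all. The 40th percentile lay between 77.7 and 106.5 signal units.

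C2C12 cells, an established mouse myoblast line, fuse into multinucleated myotubes once serum is lowered. Myotubes had differentiated for 96 h and then stayed for 2 h in medium with 0.5% horse serum that held H2O2 at 1, 10, 100 or 1000 µM, or none in the untreated group. All groups shared the line, the differentiation and the low-serum medium, and each had 4 arrays of total RNA on the Affymetrix Mouse Genome 430A chip. The design text calls them independent replicates, but nothing states that they came from separate cultures, so p-values speak only for the spread among these samples, and that spread may be technical.

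Ubiquitin-specific proteases are cysteine proteases that remove ubiquitin, a small protein tag, from other proteins. Ubiquitin ligases attach the tag, which can send a protein to the proteasome, alter its traffic or signalling, or mark a histone, and the proteases reverse this. Their active-site cysteine can be oxidised, and H2O2 is known to inhibit many of them as enzymes. The arrays measured their mRNA and not the proteins or their activity.

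All 22 myotube marker genes on the list used were measured and tested, among them myosin heavy chains, muscle creatine kinase and myogenin. Their summed signal was 149300 to 159700 on the 1000 µM arrays and 117600 to 147000 on the untreated arrays. It was 147600 to 155100 at 1 µM, also above every untreated array. At 10 µM it was 138100 to 180200 and at 100 µM 135100 to 161000. Tnnt3 was the 1 gene of that list called, higher at 1000 µM than in untreated myotubes (0.32, limma adjusted p = 0.034). It was also called with median centring, but not with quantile normalization (0.07, adjusted p = 0.598). Signals of 15 genes of cycling cells were also present, with sums of 12530 to 13590 on the untreated arrays, 11230 to 11660 at 100 µM, under every untreated array, and 12100 to 13630 at 1000 µM. Among them Plk1 was lower than in untreated myotubes at 100 µM (-0.44 ± 0.10, limma adjusted p = 0.0202) and Mki67 at 1000 µM (-0.50 ± 0.10, limma adjusted p = 0.00268), and neither with median centring (adjusted p = 0.119 and 0.0654). Aurka and Cenpa, of the same list, were higher at 1000 than at 100 µM (0.47 and 0.49, limma adjusted p = 0.0356 and 0.0251). Both were also called higher with median centring and with quantile normalization. The 7 fibroblast genes tested had sums of 21280 to 36450 on the untreated arrays and 27030 to 37890 at 1000 µM. Of 7 leukocyte markers on the chip, 1 reached the level for testing. What these levels contribute to the Usp values was not tested. The first principal component, 28.2% of the variance, set the arrays numbered 1 apart from the others at every dose, with the 10 µM array that has no number in its label among them. The median log2 signal of an array was lower by 0.203 at 1000 µM than in untreated myotubes, with no overlap between the groups (exact permutation test, two-sided p = 0.0286, the smallest that 4 against 4 arrays allow).

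At 1000 µM the mRNAs of 10 Usp genes fell, to between 55.4% and 77.3% of the untreated level. Of the 55 kept probe sets, 19 were lower and 0 were higher than in untreated myotubes (limma, Benjamini-Hochberg adjusted p under 0.05), which is 34.5% of them. Among all 14379 tested probe sets 8.48% were lower and 2.46% higher. The 10 genes were Usp9x, Usp34, Usp12, Usp3, Usp38, Usp10, Usp48, Usp21, Usp24 and Usp1. When each gene was represented by its brightest probe set, 8 of 31 genes (25.8%) were lower, against 8.05% of all genes. In the other direction, 1 Usp probe set had an unadjusted p under 0.05.

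The shift ran through most of the family. The median log2 change of the 55 probe sets at 1000 µM was -0.348, against -0.072 over all tested probe sets, and 50 of the 55 lay below zero (90.9%, against 61% of all). Usp9x alone supplied 7 of the 55. With each gene represented by its brightest probe set, the medians were -0.261 for the Usp genes and -0.048 for all genes. The 4 signals at 1000 µM all lay under the 4 untreated signals in 25 Usp probe sets, where 13.8% of all probe sets showed such a separation. The 50 below zero include Usp9x 1420923_at, also among the 25, and Usp7 1419921_s_at. These passed the filter on 4 arrays each, none of them at 1000 µM. With only the 50 Usp probe sets at or above the level on all 20 arrays, the median was -0.346, against -0.057. Since RNA was taken from whole cultures, fewer cells of a type and less RNA per cell cannot be told apart.

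How many Usp genes counted as lower depended on how arrays were put on a common scale. The deposited scaling equalises the trimmed mean. When arrays were instead centred on their median, the median of all tested probe sets moved from -0.072 to 0.131 and the count of lower Usp probe sets was 7 (background 2.83%). With quantile normalization that median was 0.01 and the count was 8 (background 3.32%). The Usp median minus the median of all probe sets was -0.275 with the deposited scaling, which median centring cannot change, and -0.219 with quantile normalization. The number of Usp probe sets below zero was 50 with the deposited scaling, 39 with median centring and 47 with quantile normalization. Usp9x, Usp34 and Usp12 were called lower under all 3 scalings and under every one of the 27 alternative settings with a test. That holds for 6 of their probe sets: Usp12 1425805_a_at, Usp34 1434393_at and Usp9x 1420922_at, 1428193_at, 1428194_at and 1450037_at. The crossed rule, which holds no test, was not passed by Usp34. With median centring 2 Usp probe sets were called higher, where 14.1% of all were, namely Usp14 1416208_at (log2 change 0.41, adjusted p = 0.0141) and Usp39 1460209_at (0.35, adjusted p = 0.0468). These stood at 0.21 and 0.14 with the deposited scaling and were not called.

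**Figure D1:**
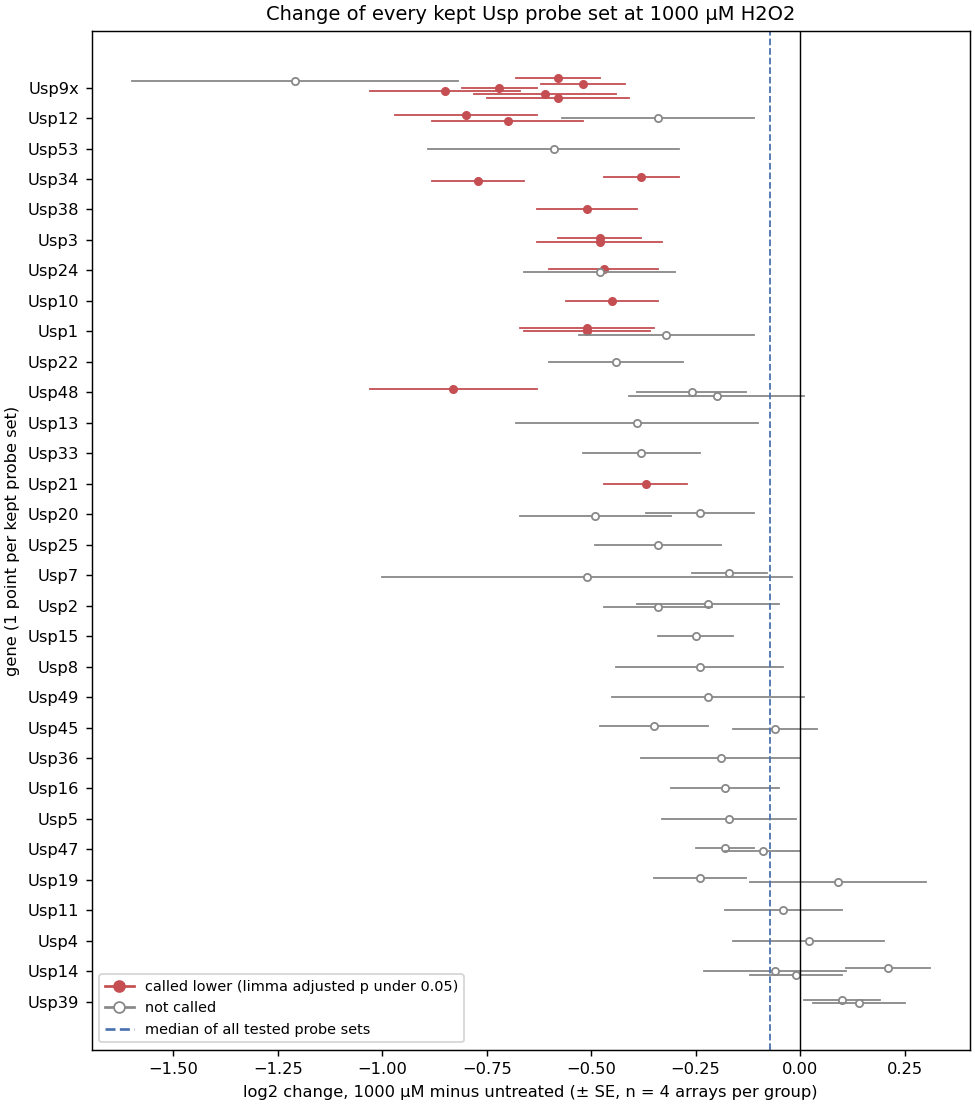
Log2 change at 1000 µM H2O2 minus untreated (x axis, ± SE, 4 arrays per group) of each of the 55 kept probe sets, grouped by gene (y axis). Filled red points are the 19 probe sets called lower, open grey points were not called, and the dashed line marks the median of all tested probe sets at -0.072; 50 points lie left of zero.

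**Figure D2:**
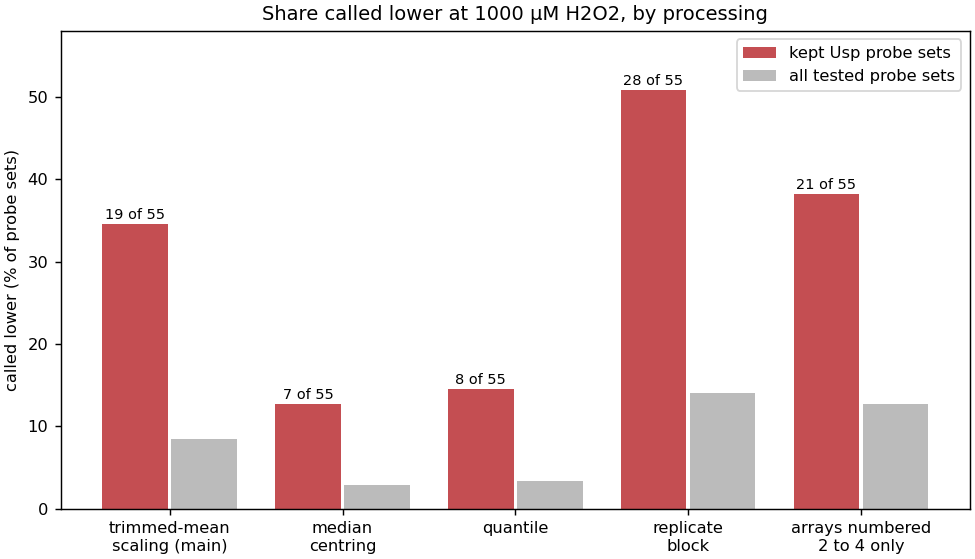
Share of probe sets called lower at 1000 µM (y axis, percent) among the 55 kept Usp probe sets (red, with their number) and among all tested probe sets (grey), under 5 ways of processing (x axis). The Usp share lies above the grey bar in each, with 19, 7, 8, 28 and 21 of 55 probe sets. The 28 include Usp9x 1420923_at, which passed the filter only through groups other than 1000 µM.

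The 250 bases upstream of the annotated start site are shown for Usp34, Usp12 and Usp2. The values below turn on the dose pattern of these genes, and their promoters were in the table used. Usp34 and Usp12 each had a probe set lower at 1000 µM under every setting with a test. Usp2 parted the doses of 100 and 1000 µM. Sequences are from RefSeq, build GRCm38.p6, written 5′ to 3′ on the gene's strand, at chr11:23306645-23306894 (plus strand) for Usp34, chr5:146794957-146795206 (minus strand) for Usp12 and chr9:44084670-44084919 (plus strand) for Usp2. Capitals mark the SP1 box, GGGCGG on either strand, and overlapping matches run together.
Usp34: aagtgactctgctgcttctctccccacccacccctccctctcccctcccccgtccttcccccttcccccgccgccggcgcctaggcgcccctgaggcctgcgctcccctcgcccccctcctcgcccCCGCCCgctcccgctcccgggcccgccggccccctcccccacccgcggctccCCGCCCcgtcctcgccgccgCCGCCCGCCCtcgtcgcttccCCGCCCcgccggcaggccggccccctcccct
Usp12: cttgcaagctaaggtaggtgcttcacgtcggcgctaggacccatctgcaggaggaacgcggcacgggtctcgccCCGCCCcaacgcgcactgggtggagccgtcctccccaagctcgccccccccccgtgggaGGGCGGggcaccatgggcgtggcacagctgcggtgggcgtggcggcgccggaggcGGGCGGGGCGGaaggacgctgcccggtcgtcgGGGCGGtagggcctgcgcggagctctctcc
Usp2: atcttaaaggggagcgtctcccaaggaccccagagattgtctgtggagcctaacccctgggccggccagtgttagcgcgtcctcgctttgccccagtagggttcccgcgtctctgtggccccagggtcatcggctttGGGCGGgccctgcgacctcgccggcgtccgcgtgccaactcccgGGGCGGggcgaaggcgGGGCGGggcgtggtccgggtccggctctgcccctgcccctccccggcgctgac
Usp34 held 5 such boxes, Usp12 held 5 and Usp2 held 3. Of the 31 kept genes, 23 had a promoter in the table, and the box was present in 6 of 8 genes that were lower at 1000 µM, in 11 of the other 15, and in 32.7% of the 32851 promoters of the table. Both groups of Usp promoters were rich in G and C, with a median of 65.0% in the lower genes, 65.6% in the others and 52.4% over the table. The cyclic AMP response element TGACGTCA, the D-box TTATGNAA and the heat shock element core GAANNTTC were found in 0 of the 23, with 1.5%, 3.1% and 6.7% of all promoters holding them. The antioxidant response element core TGACNNNGC was found in 1 of 8 lower genes and 4 of 15 others, and in 10.2% of all. A match describes these letters only and is not shown to be a site.

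Usp34 encodes a very large protease that in human cells acts on axin in Wnt signalling. Its probe set 1434393_at had signals of 142, 197, 178 and 185 on the 1000 µM arrays, against 308, 322, 282 and 280 on the untreated arrays. Every 1000 µM array was lower than every untreated one. The log2 change was -0.77 ± 0.11 (SE, n = 4 arrays each, limma adjusted p = 0.000159), which is 58.6% of the untreated geometric mean. At 100 µM the signals of 1434393_at were 289, 281, 288 and 247, overlapping the untreated ones, and 1000 against 100 µM gave -0.66 ± 0.11 (limma adjusted p = 0.00147). The other probe set, 1434392_at, had 803, 838, 734 and 771 at 1000 µM against 1040, 1010, 1020 and 1020 in untreated myotubes, again with no overlap (log2 change -0.38 ± 0.09, limma adjusted p = 0.00678). Its 100 µM signals of 856, 840, 859 and 863 also lay under every untreated value. That change was not called (-0.26 ± 0.09, limma adjusted p = 0.187, and 0.0415 without 1 µM replicate 2), nor was 1000 against 100 µM (-0.12 ± 0.09, limma adjusted p = 0.512). With median centring the change of 1434392_at was -0.18 (adjusted p = 0.27), and that of 1434393_at was -0.57 (adjusted p = 0.00224).

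Usp9x encodes a large X-linked protease, related to fat facets of Drosophila, whose known substrates include the survival protein MCL1. It had 7 kept probe sets, the most of any member gene, and 6 of them fell at 1000 µM. For 1428194_at the signals were 486, 427, 433 and 461 at 1000 µM, against 766, 768, 714 and 722 in untreated myotubes. The groups were far apart relative to their spread (log2 change -0.72 ± 0.09, limma adjusted p = 1.33e-05, 60.8% of untreated). For 1420922_at, the brightest, they were 612, 667, 615 and 640 at 1000 µM against 1090, 952, 810 and 965, also without overlap (-0.58 ± 0.10, limma adjusted p = 0.000621).

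The remaining Usp9x probe sets moved the same way. The changes of 1428193_at and 1450037_at were -0.52 ± 0.10 and -0.85 ± 0.18 (limma adjusted p = 0.00134 and 0.00413), and those of 1450038_s_at and 1450039_at were -0.61 ± 0.17 and -0.58 ± 0.17 (limma adjusted p = 0.0278 and 0.0297). The last pair lost their calls with some arrays left out: 1450038_s_at without untreated replicate 1, 2 or 4 or 1000 µM replicate 1 or 4 (adjusted p = 0.0522 to 0.089), and 1450039_at without untreated replicate 1 or 1000 µM replicate 2 or 4 (adjusted p = 0.0995 to 0.106). Both also lost them under median centring and quantile normalization, and 1450038_s_at with replicates 2 to 4 alone (adjusted p = 0.0597). The seventh, 1420923_at, reached the level for testing on 4 arrays only, 1 at each dose but 1000 µM, so that its retention depended on groups other than the highest dose. Its signals were 32.8, 28.8, 43.9 and 42.4 at 1000 µM against 104, 103, 55 and 84.7 in untreated myotubes, and it was not called (-1.21 ± 0.39, limma adjusted p = 0.0502). With the replicate number as a block its adjusted p was 0.0412.

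Usp9x was also the 1 member called at 100 µM. There 1428194_at had 602, 552, 565 and 581, against 766, 768, 714 and 722 in untreated myotubes. The 100 µM values sat between the untreated and the 1000 µM values without overlapping either. The change from untreated was -0.37 ± 0.09 (limma adjusted p = 0.0304), and the further change of 1000 against 100 µM was -0.35 ± 0.09 (limma adjusted p = 0.022). The call at 100 µM was lost with untreated replicate 1, 2, 3 or 4 or 100 µM replicate 2, 3 or 4 left out (adjusted p = 0.0578 to 0.104), and with median centring (-0.29, adjusted p = 0.119). The call of 1000 against 100 µM was lost without 100 µM replicate 1 or 4 or 1000 µM replicate 2 or 3 (adjusted p = 0.0593 to 0.0778), with median centring (-0.22, adjusted p = 0.148) and with quantile normalization (-0.28, adjusted p = 0.0766).

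**Figure D3:**
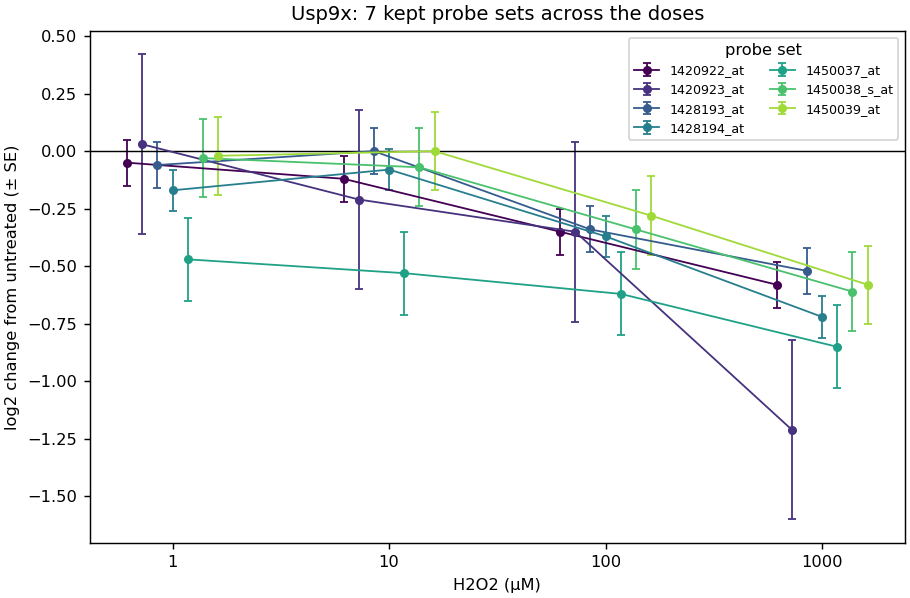
Log2 change from untreated (y axis, ± SE, 4 arrays per dose) of the 7 kept Usp9x probe sets at 1, 10, 100 and 1000 µM H2O2 (x axis, log-spaced doses; points of one dose are set side by side). All 7 lie below zero at 100 and 1000 µM, between -0.28 and -0.62 and between -0.52 and -1.21. The -1.21 is that of 1420923_at, which passed the filter only through groups other than 1000 µM.

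Usp12 encodes a protease that works with the WD-repeat proteins encoded by Wdr48 and Wdr20. Its probe set 1425805_a_at had 116, 121, 152 and 164 at 1000 µM, against 326, 221, 196 and 224 in untreated myotubes. The groups did not overlap, and the highest untreated value was that of replicate 1 (log2 change -0.80 ± 0.17, limma adjusted p = 0.00443, 57.6% of untreated). At 100 µM the signals were 223, 162, 240 and 234. Of those, 3 lay above every 1000 µM value and replicate 2 lay within their range (1000 against 100 µM -0.64 ± 0.17, limma adjusted p = 0.0343). That last call was lost without 100 µM replicate 1, 3 or 4 or 1000 µM replicate 1 or 2 (adjusted p = 0.0833 to 0.108). It was lost as well with median centring (adjusted p = 0.0726), quantile normalization (0.0872), no filter (0.0552) and replicates 2 to 4 alone (0.0508). The probe set 1434483_at also fell at 1000 µM, with 222, 234, 156 and 161 against 417, 303, 280 and 260 in untreated myotubes (-0.70 ± 0.18, limma adjusted p = 0.0153). It lost its call without untreated replicate 1 or 1000 µM replicate 3 or 4 (adjusted p = 0.0546 to 0.0582), and with median centring (0.0539) or quantile normalization (0.0865). The third, 1427478_at, was not called (-0.34 ± 0.23).

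Wdr20, which encodes a partner of the Usp12 product, was tested as well and fell at 1000 µM (log2 change -0.49 ± 0.12, limma adjusted p = 0.0127). Its change was -0.29 with median centring (adjusted p = 0.15) and -0.32 with quantile normalization (adjusted p = 0.153). Wdr48 was not among the genes called. Of 13 partners and substrates tested 1 was lower, where 8.05% of all genes were by their brightest probe set.

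Usp21, whose product removes ubiquitin from histone H2A, had a single kept probe set, 1454034_a_at. Its signals were 280, 250, 229 and 284 at 1000 µM, against 334, 352, 309 and 351 in untreated myotubes. At 100 µM they were 259, 279, 252 and 273, also under every untreated value. The 2 high doses thus lay together, with a difference of 1000 against 100 µM of -0.03 ± 0.10 (limma adjusted p = 0.92, 95% interval -0.23 to 0.17). Against untreated the change was -0.37 ± 0.10 at 1000 µM (limma adjusted p = 0.0186) and -0.34 ± 0.10 at 100 µM, where it was not called (limma adjusted p = 0.108). The call at 1000 µM was lost without untreated replicate 2 or 4 or 1000 µM replicate 2 or 3 (adjusted p = 0.0526 to 0.0723), with median centring (-0.17, adjusted p = 0.259) and with quantile normalization (-0.21, adjusted p = 0.25).

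Usp2 is a protease gene known in mouse for its circadian rhythm and for products that act on cyclin D1 and MDM2. It had another pattern on the dimmer of its 2 kept probe sets. Its probe set 1417168_a_at had 78.1, 80, 94.3 and 102 in untreated myotubes, 149, 131, 139 and 106 at 1 µM, 105, 93.1, 119 and 96.5 at 10 µM, 165, 138, 112 and 120 at 100 µM and 63.6, 73.6, 83.8 and 83.5 at 1000 µM. The values at 1 and 100 µM lay above every untreated value, those at 10 µM overlapped them, and those at 1000 µM overlapped them too. The changes from untreated, 0.57 ± 0.17 at 1 µM (limma adjusted p = 0.572), 0.59 ± 0.17 at 100 µM (0.124) and -0.22 ± 0.17 at 1000 µM (0.468), were not called. The difference between 1000 and 100 µM was called, at -0.81 ± 0.17 (limma adjusted p = 0.00905), or 57.1% of the level at 100 µM, and no overlap. Under quantile normalization its adjusted p was 0.0522. The signal stood at or above the array's 40th percentile on 16 arrays, 2 of them untreated and 2 at 1000 µM, so it is a dim probe set. The second probe set, 1417169_at, was lower in all 4 arrays at 1000 µM (194, 302, 273 and 243) than in the 4 at 100 µM (303, 310, 310 and 325), but was not called (-0.32 ± 0.13, limma adjusted p = 0.185). It is the brighter of the 2. Its changes from untreated were 0.07 ± 0.13 at 1 µM and -0.02 ± 0.13 at 100 µM, neither called (limma adjusted p = 0.979 and 0.974). The difference between the 2 probe sets at 100 µM was 0.61 ± 0.18, also not called (limma adjusted p = 0.666).

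**Figure D4:**
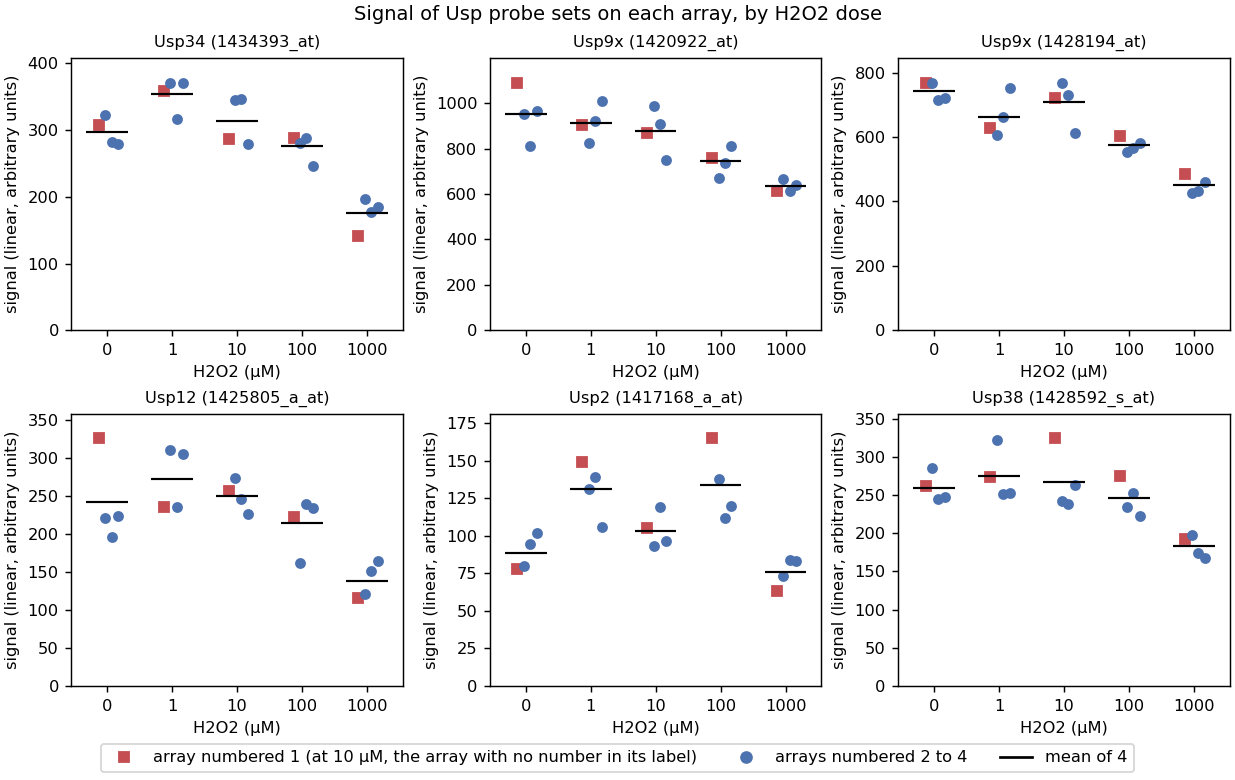
Signal on each array (y axis, linear, arbitrary units, from 0) by H2O2 dose (x axis, µM) for 6 Usp probe sets, with the array numbered 1 as a red square, the other 3 as blue circles and the mean of 4 as a line. The 4 values at 1000 µM lie under the 4 untreated values in every panel but that of Usp2, where the values at 100 µM lie above both.

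Usp38, which in human cells acts on the kinase TBK1, had a single probe set, 1428592_s_at, whose name ending marks probes shared with other transcripts. Its signals were 193, 197, 174 and 167 at 1000 µM, against 262, 285, 245 and 247 in untreated myotubes, without overlap. The change was -0.51 ± 0.12 (limma adjusted p = 0.00941). Against 100 µM, with 275, 234, 253 and 222, it was -0.43 ± 0.12 (limma adjusted p = 0.0458), a call lost when any one of 16 of the 20 arrays was left out, among them all 4 at 1000 µM and all 4 at 100 µM (adjusted p = 0.0506 to 0.135). That call was also lost with median centring (-0.30, adjusted p = 0.175), quantile normalization (-0.31, adjusted p = 0.178) and no filter (adjusted p = 0.0797). The call against untreated was lost with median centring (adjusted p = 0.0875) and quantile normalization (adjusted p = 0.113).

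Usp3 and Usp10 have roles in the nucleus and in stress signalling. Usp3 acts on ubiquitinated histones H2A and H2B. Its probe set 1425022_at had 351, 383, 394 and 341 at 1000 µM, against 573, 503, 546 and 435 in untreated myotubes. Every 1000 µM value was lower, with a change of -0.48 ± 0.10 (limma adjusted p = 0.00381). The second, 1425023_at, had 129, 210, 247 and 179 at 1000 µM against 245, 271, 264 and 258, where 1000 µM replicate 3 reached the untreated range (-0.48 ± 0.15, limma adjusted p = 0.0468). It lost its call when any one of 15 of the 20 arrays was left out (adjusted p = 0.0501 to 0.144), the highest being without 1000 µM replicate 1, the lowest of its values. Usp10 encodes a partner of the stress granule protein G3BP1 and a deubiquitinase of p53. Its signals on 1448230_at were 515, 467, 418 and 467 at 1000 µM, against 660, 699, 646 and 556, without overlap (-0.45 ± 0.11, limma adjusted p = 0.0102). The Usp10 call was lost with median centring (-0.25, adjusted p = 0.151) and quantile normalization (-0.35, adjusted p = 0.0537). The call of Usp3 1425022_at was lost with median centring (adjusted p = 0.0625), and that of 1425023_at with both (adjusted p = 0.232 and 0.31), with no filter (0.0762) and with replicates 2 to 4 alone (0.0982).

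Usp48, Usp1 and Usp24 fell on some of their probe sets. Usp48 is known to act on the NF-kB subunit RelA, and 1 of its 3 probe sets was called. That was 1419277_at, with 97, 95.7, 137 and 123 at 1000 µM against 307, 188, 169 and 159 in untreated myotubes, without overlap and with untreated replicate 1 the highest (-0.83 ± 0.20, limma adjusted p = 0.011, and 0.0656 with quantile normalization). The others, 1419278_at and 1424056_at, changed by -0.26 ± 0.13 and -0.20 ± 0.21. The difference between 1419277_at and 1419278_at was -0.57 ± 0.18 on the log2 scale and was not called over the 5112 pairs of probe sets tested (limma adjusted p = 0.196).

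Usp1, together with Wdr48, removes ubiquitin from PCNA and FANCD2 in DNA repair. Its probe set 1423675_at had 529, 333, 338 and 342 at 1000 µM, against 646, 506, 481 and 535 in untreated myotubes. The 1000 µM value of replicate 1 lay inside the untreated range, and the other 3 lay below it (-0.51 ± 0.15, limma adjusted p = 0.035). The signals of 1423674_at were 360, 243, 259 and 216 at 1000 µM against 501, 360, 325 and 346 (-0.51 ± 0.16, limma adjusted p = 0.0397). Both lost their calls without untreated replicate 1, 2 or 4 or 1000 µM replicate 2, 3 or 4 (adjusted p = 0.053 to 0.139), and with median centring, quantile normalization or no filter (adjusted p = 0.0512 to 0.206). The brightest, 1451080_at, had 1610, 819, 1000 and 975 at 1000 µM against 1990, 1080, 1180 and 1230 and was not called (-0.32 ± 0.21). On all 3, the array numbered 1 was the highest of its group at both doses.

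Usp24, a large protease known to act on the DNA damage sensor DDB2 in human cells, had 253, 230, 172 and 183 on 1448013_at at 1000 µM, against 313, 314, 240 and 285. The groups overlapped by the 1000 µM value of replicate 1 (-0.47 ± 0.13, limma adjusted p = 0.0306). The call was lost without untreated replicate 1, 2 or 4 or 1000 µM replicate 3 or 4 (adjusted p = 0.0604 to 0.107), with median centring (0.181), quantile normalization (0.228) and no filter (0.0514). The second probe set, 1448014_s_at, changed by a like amount but was not called (-0.48 ± 0.18).

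Of the 21 kept genes without a call at 1000 µM, 30 probe sets changed by -0.59 to 0.21, with a median of -0.2 and 25 below zero. The 3 with the highest signals were Usp47, known in base excision repair, Usp14, which binds the proteasome, and Usp39, a spliceosome protein without protease activity. Usp14 1416208_at had 1830, 2020, 2020 and 2250 at 1000 µM against 1640, 1760, 1670 and 1940 in untreated myotubes, overlapping (0.21 ± 0.10, limma adjusted p = 0.167). The other Usp14 probe sets, 1437714_x_at and 1455829_at, changed by -0.06 and -0.01 and were not called (limma adjusted p = 0.869 and 0.961). Usp47 1426976_at had 1570, 1400, 1560 and 1370 at 1000 µM against 1470, 1720, 1740 and 1750, overlapping by the untreated replicate 1 (-0.18 ± 0.07). It was called lower without that array (-0.24, adjusted p = 0.0429) and with replicates 2 to 4 alone (-0.27, adjusted p = 0.00808). The other Usp47 probe set, 1426977_at, was nearly as bright, changed by -0.09 (limma adjusted p = 0.616) and was not called under any setting. Usp39 1437007_x_at changed by 0.10 ± 0.09. Both Usp19 probe sets, of a gene known to be raised in wasting muscle, stayed without a call (-0.24 ± 0.11 and 0.09 ± 0.21). Usp53 had the largest change without a call among single-probe-set genes, at -0.59 ± 0.30 (limma adjusted p = 0.224).

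The 5 probe sets above zero at 1000 µM belonged to Usp14, Usp39, Usp4 and Usp19, with Usp39 contributing 2. With the replicate number as a block, 9 further Usp probe sets were called lower at 1000 µM, 28 in all of 17 genes, where 14% of all probe sets were. They were Usp53 (adjusted p = 0.021), Usp15 (0.0214), Usp20 (0.0254), Usp1 1451080_at (0.0342), Usp33 (0.0353), Usp45 (0.0377), Usp9x 1420923_at (0.0412), Usp8 (0.0423) and Usp2 1417169_at (0.0449). Of these, Usp9x 1420923_at passed the filter only through groups other than 1000 µM, so its call adds no support.

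The lower doses gave few differences. At 1 µM 0 of the 55 probe sets and 0 of all were called, while 10 Usp probe sets had an unadjusted limma p under 0.05, 4 higher and 6 lower (18.2%, against 6.68% of all). At 10 µM 0 of the 55 were called, with 0.00695% of all, and 5 had an unadjusted p under 0.05 (9.09%, against 4.99% of all). The crossed rule of the study's design text also called 0 at both. At 100 µM 1 of the 55 was lower (1.82%, background 0.355%) and 0 were higher (background 0.862%), with an unadjusted limma p under 0.05 for 10 lower and 2 higher (21.8%, against 11.2% of all). The 4 signals at 100 µM all lay below the untreated ones in 9 Usp probe sets and above them in 2, Usp2 1417168_a_at and Usp14 1416208_at (background 5.19% and 3.79%). The median change of the 55 was -0.108 at 100 µM, against -0.031 over all tested probe sets.

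The 19 probe sets called at 1000 µM were followed back through the doses as a description. Their median change was -0.05 at 1 µM, -0.07 at 10 µM, -0.28 at 100 µM and -0.52 at 1000 µM, and the comparisons share the untreated arrays. Between the 2 high doses, 5 of 55 probe sets were lower at 1000 µM (9.09%, background 3.6%) namely Usp34, Usp2, Usp9x, Usp12 and Usp38. Called higher by limma were 0 (background 0.744%), and 0 Usp probe sets were higher at an unadjusted p under 0.05. With the replicate number as a block 12 were lower, where 7.36% of all were, the added ones being of Usp8, Usp20, Usp3, Usp10, Usp53 and Usp22. Over all doses at once, the F-test called 12 of 55 (background 8.01%), and 21 with the block (background 15.8%).

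Probe sets of the same gene did not differ in a way that passed the test. Of 24 pairs of Usp probe sets, 0 were called at 1000 µM, where 0.606% of all 5112 pairs were. There 3 had an unadjusted limma p under 0.05 (12.5%, against 9.6% of all pairs): Usp48 at -0.57, Usp34 at -0.39 and Usp45 at -0.29. The other comparisons called 0 as well. Such a p was more frequent among Usp pairs at 1 µM (20.8%, against 5.93% of all), 10 µM (8.33%, against 4.32%) and 100 µM (12.5%, against 5.01%). For 1000 against 100 µM the shares were 8.33% and 8.35%.

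The 8 genes with no kept probe set were Usp17la, Usp18, Usp26, Usp27x, Usp29, Usp42, Usp43 and Usp9y. Usp18 removes the ubiquitin-like ISG15, and its probe set was under the level on all 20 arrays. In all, 13 member probe sets were left out, including further ones of Usp19, Usp36 and Usp45. The one just outside the rule was Usp36 1456094_at, at or above the level on 2 arrays. Those just inside were Usp7 1419921_s_at and Usp9x 1420923_at, on 4 arrays each. Of the 55 kept, 50 reached the level on all 20 arrays. The others were Usp13 on 12, Usp2 1417168_a_at on 16 and Usp49 on 18 arrays, beside the 2 just named.

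Genes that act beside the Usp family were counted from lists, by their brightest probe set. Of all genes so represented, 8.05% were lower and 2.64% higher at 1000 µM than in untreated myotubes. The shares were 0.404% and 0.993% at 100 µM, and 3.62% and 0.76% for 1000 against 100 µM. Each list below had 1 gene lower at 1000 µM than in untreated myotubes, which does not set it apart from all genes. Of 21 deubiquitinase genes of other classes, 1 was lower at 1000 µM, Otud4 (-0.46 ± 0.14, limma adjusted p = 0.0389), and 0 were higher. The median change of these 21 was -0.06, against -0.05 over all genes by their brightest probe set. In that list 0 genes were called at 1, 10 or 100 µM, and Mindy1 was lower at 1000 than at 100 µM (-0.33 ± 0.08, limma adjusted p = 0.0237). Calls of both were lost with median centring and with quantile normalization.

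Of 29 genes for ubiquitin, E1 and E2 enzymes, 1 rose and 1 fell at 1000 µM, and 0 were called at the lower doses. Ube2n, which builds lysine-63 chains, rose (0.39 ± 0.08, limma adjusted p = 0.00493). Ube2o, a combined E2 and ligase, fell (-0.52 ± 0.14, limma adjusted p = 0.0194), a call lost with the other 2 scalings. Ube2o and Cdc34 were lower at 1000 than at 100 µM and Ube2s was higher, the Cdc34 call being lost with median centring (-0.11, adjusted p = 0.477). Of 13 partners and substrates of Usp products, 2 rose at 100 µM, Mdm2 (1.33 ± 0.13, limma adjusted p = 1.9e-06) and Gadd45a (0.59 ± 0.15, limma adjusted p = 0.0483). At 1000 µM Mdm2 (1.01 ± 0.13, limma adjusted p = 2.48e-05) and Pcna (0.33 ± 0.08, limma adjusted p = 0.0131) were higher, and Wdr20 was the 1 lower. With quantile normalization the calls of Gadd45a (adjusted p = 0.0526) and Pcna (adjusted p = 0.178) were lost. MDM2, the p53 ligase, is a substrate of the USP7 and USP2 proteins, and Usp7 itself was not called (-0.17 ± 0.09 on 1419920_s_at).

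Of 10 interferon and ISG15 genes tested, Ifnar1 was lower at 1000 µM (-0.33 ± 0.10, limma adjusted p = 0.0427), and 7 more on the chip were under the level for testing. Of 14 clock genes, Nfil3 was higher at 100 µM (0.70 ± 0.12, limma adjusted p = 0.00392) and Clock was lower at 1000 µM (-0.46 ± 0.13, limma adjusted p = 0.0244). The calls of Ifnar1 and Clock were lost with both other scalings.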

How the data were processed

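Signal intensity values of 20 arrays, 4 per dose, were used. Per the labels and the series' design text, the authors' deposited intensity values are linear signals, 1 per probe set, made with Affymetrix Microarray Suite 5.0 (MAS5 in the submitters' processing notes). Their 2% trimmed mean was 500.1 to 500.2 on every array. Detection calls were not used here, and arrays have no read depth, so their number limits the precision.

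Here each array was rescaled to a common trimmed mean, floored at 1 and put on a log2 scale. The 64 control probe sets were left out, as were 8247 below the 40th percentile on more than 16 arrays. limma 3.58.1 in R 4.3.3 fitted all 5 doses together (lmFit, eBayes with trend, 15 residual degrees of freedom), two-sided, with Benjamini-Hochberg adjustment over 14379 probe sets within each comparison. All single-gene adjusted p-values are limma's. On data simulated for 1000 µM against untreated over 14379 probe sets, the fit recovered 87 of 100 changes of 1 and 45 of 100 changes of 0.5 on the log2 scale, with 6 false calls.

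The members and gene lists were chosen with earlier results of these data known. Genes with a called probe set are given array by array, and the others by ranges. Symbols come from the platform annotation, checked against RefSeq (0 changed). Groups and replicate numbers come from the sample titles. One 10 µM title has no number, and that array was left out of the fit with replicate number as a block. Arrays of one number deviated together: for 1000 µM against untreated, the correlations of their deviations from the group means were 0.513, 0.195, 0.185 and 0.205, and the lowest for 1 or 100 µM against untreated or 1000 against 100 µM was 0.105. For 10 µM it was 0.053. Alternatives were 2 other scalings, 2 other filters, log2(signal + 16), the block, replicates 2 to 4 alone, each array left out, and the crossed rule of the design text, all 16 pairs of arrays in one direction with a mean ratio above 1.75, without its difference calls.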

Additional observations from a re-analysis of the deposited data

Results flagged for a closer look

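In 3 of 85 groups of 4 arrays examined (17 probe sets at 5 doses), 1 array stood apart from the other 3 by Dixon's test, and chance flags about 1 in 20 groups. All 3 were arrays numbered 1, counting the 10 µM array without a number in its label. Usp1 1423675_at had a signal of 529 on 1000 µM replicate 1, where the other 3 arrays lay between 333 and 342. Usp1 1451080_at had 1810 on 10 µM replicate 1, with the others between 1180 and 1230. Usp48 1419278_at had 312 on 1000 µM replicate 1, below the others at 390 to 405. What sets the arrays numbered 1 apart was not tested.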

How the results depend on the processing

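The directions of the 25 called changes of single probe sets held in all 674 checks. In 119 of these the adjusted p passed 0.05, 79 with an array left out and 40 under another setting. Many of the checks could not have turned a direction. Leaving out an array of a dose outside the comparison, or changing the filter, keeps the log2 change the same. For 1000 µM against untreated, 19 lower Usp probe sets became 7 with median centring, which also gave 2 higher, and 8 with quantile normalization. They became 15 of 68 without a filter (4.35% of all). By the crossed rule they became 4 (Usp12, Usp48 and 2 of Usp9x, where 1.59% of all probe sets passed). The Usp9x ones include 1420923_at, which passed the filter only through groups other than 1000 µM, so it adds no support. The count of lower probe sets was 12 to 22 with an array left out, in some of these fits with Usp9x 1420923_at among them. The ranges with an array left out are given without the share of all probe sets, so they are not set against it. For 100 µM, the 1 lower probe set became 0 with median centring and 0 by the crossed rule, and 0 to 3 with an array left out. For 1000 against 100 µM, 5 became 2 with median centring (1.34% of all) and 1 with quantile normalization (1.83% of all). It was 3 of 68 without a filter (1.75% of all), 1 by the crossed rule (Usp2, 1.11% of all), and 2 to 6 with an array left out. With quantile normalization the Usp share, 1 of 55, did not exceed that of all probe sets. The F-test's 12 became 6 with median centring (6.72% of all), 19 with replicates 2 to 4 alone (20.3% of all), and 8 to 16 with an array left out. Counts of 0 at 1 and 10 µM, and of 0 for pairs of probe sets, stayed 0 in every setting run. With the replicate numbers as a block, 1000 against 100 µM gave 12 and the F-test 21, and 1000 µM against untreated gave 28. The cause of these differences was not tested. With 4 arrays per dose, changes of about 0.5 on the log2 scale can be missed, and dim probe sets more so.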
